A study of Arabidopsis thaliana with 3 samples.

Results

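The Aux/IAA and ARF genes are the core transcriptional regulators of the auxin response, and they were examined here for binding of AtSDR4L, an Arabidopsis transcriptional regulator. The members were all nuclear protein-coding genes named IAA or ARF plus a number, leaving out the ADP-ribosylation factors that share the ARF name. This gave 52 genes of 27444 nuclear protein-coding genes, 29 of them Aux/IAA and 23 ARF. The assay was ChIP-seq, in which DNA bound by the tagged protein is pulled down with an anti-HA antibody and sequenced, and it was run on whole seedlings 4 days after imbibition. The induced group held 2 replicates, called biological in the design text, of AtSDR4L-HA seedlings grown on 1 µM β-estradiol, which switches on the HA-tagged protein. The control was 1 library of uninduced AtSDR4L-HA seedlings, which carry the same transgene and were grown without estradiol. The sources used here name neither the promoter behind the transgene nor how many transgenic lines were used.

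Auxin acts by removing repressors. Aux/IAA proteins bind ARF transcription factors on auxin-responsive genes and recruit TOPLESS-type corepressors. Auxin joins Aux/IAA proteins to the F-box receptors TIR1 and AFB, the Aux/IAA proteins are degraded, and the ARF factors are freed. Many Aux/IAA genes are themselves induced by auxin. In seedlings this circuit governs root growth, lateral root formation, bending towards light and gravity, and leaf and vascular patterning.

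The authors called peaks in each induced replicate against the 1 control library and paired peaks between the lists by their IDR (irreproducible discovery rate), a measure of how repeatably a region was ranked. A fold enrichment here is the authors' value at a peak's summit in the induced sample over the uninduced control. Both lists were divided by the same control, so finding a gene in both is not independent support. The lists hold only regions that passed the caller's limit and no read counts, so depth is unknown and a gene without a peak may be bound below that limit. In whole seedlings, strong binding in few cells and weak binding in many cannot be told apart. A gene was counted when a summit lay from 1000 bp outside either gene end through the gene body, and all positions are 1-based on TAIR10. The gene table used gives no strand, so the ends of a gene are named by lower and higher coordinate and not as promoter or 3′ end.

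Peaks lay at many of these genes, and most were of modest height. In replicate 1, 27 of the 52 genes (51.9%) had a summit in the window, against 36% of all nuclear protein-coding genes. In replicate 2, 10 genes (19.2%) had one, against 13.6% of all genes. The list of replicate 1 was longer as a whole, with 9811 nuclear peaks against 3423 in replicate 2. Summits in both lists were present at 9 genes (17.3%, against 8.88% of all genes), at 18 genes in replicate 1 only, at 1 gene in replicate 2 only, and at 24 genes in neither. The members' shares were above the background in both lists, and this difference was not tested. The members' gene spans were also longer, with a median of 2593 bp against 2078 bp for all genes. Per 100 kb of window the members had 17.4 summits in replicate 1, against 10.5 for all genes, and 4.04 in replicate 2, against 3.67. The families differed here, with 26.8 and 5.36 for Aux/IAA genes, and 9.61 and 2.96, below all genes, for ARF genes.

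**Figure D1:**
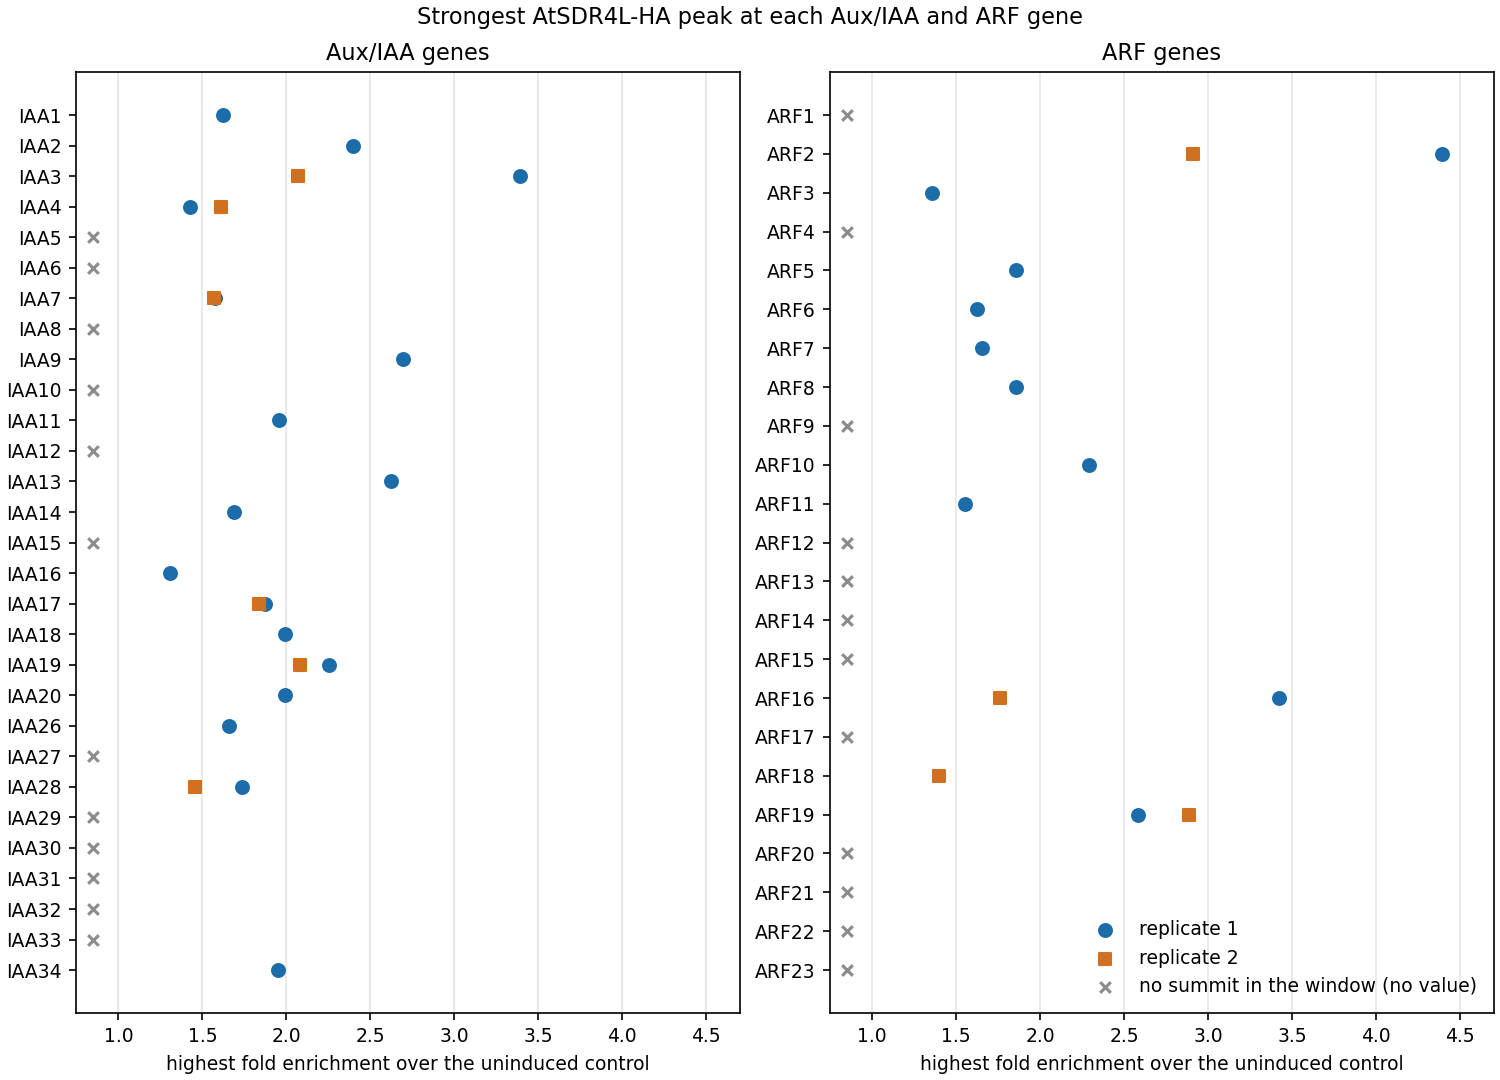
Highest fold enrichment over the uninduced control (x axis) among the peaks of each Aux/IAA gene (left) and ARF gene (right), with replicate 1 as circles and replicate 2 as squares. Crosses at the left edge mark genes with no summit in the window and stand for no value. ARF2 had the highest fold in each list, 4.39 and 2.91, and most other values lay below 2.5.

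The highest enrichment of all 52 genes lay beside ARF2, a repressor-type ARF that restrains cell expansion and organ and seed size. Its peak at chromosome 5: 24909441-24910814 had a fold of 4.39 in replicate 1, and the peak at 24909507-24909878 had 2.91 in replicate 2, a mean of 3.65 ± 1.04 (SD, n = 2). These folds ranked 79 among the 9811 nuclear peaks of replicate 1 and 131 among the 3423 of replicate 2. The summits of the replicates were 1 bp apart, 483 and 482 bp outside the lower-coordinate end of the gene, and ARF2 was the only gene with the summit in its window. A further region of both replicates lay on the same side at chromosome 5: 24907827-24908911, 1840 bp outside ARF2 and thus beyond the window. It had folds of 2.84 and 2.22 and an IDR of 0.0378, and it fell in the window of AT5G61997.

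The IDR of the ARF2 region was 0.391 in the authors' deposited table, which placed it at rank 1014 of 1784 matched regions, while its mean fold placed it at rank 60. The replicate 1 peak had 3 summits, with −log10 q of 58.8, 8.38 and 5.31, and the table ranked the region by 5.31, the value of the weakest. The same held across the table. The ranking value equalled the lower of the weakest summits of the matched peaks in 1775 of the 1784 regions (within 0.001), and 465 of these were regions where the strongest summits would have given another value. Several summits were present in 642 of the 1784 regions, but in only 8 of the 182 with an IDR of at most 0.05. ARF16 and IAA17 were also ranked by a weaker summit, at −log10 q of 1.02 and 5.23, although the strongest summits of their replicate 1 peaks had 34.7 and 8.47.

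**Figure D2:**
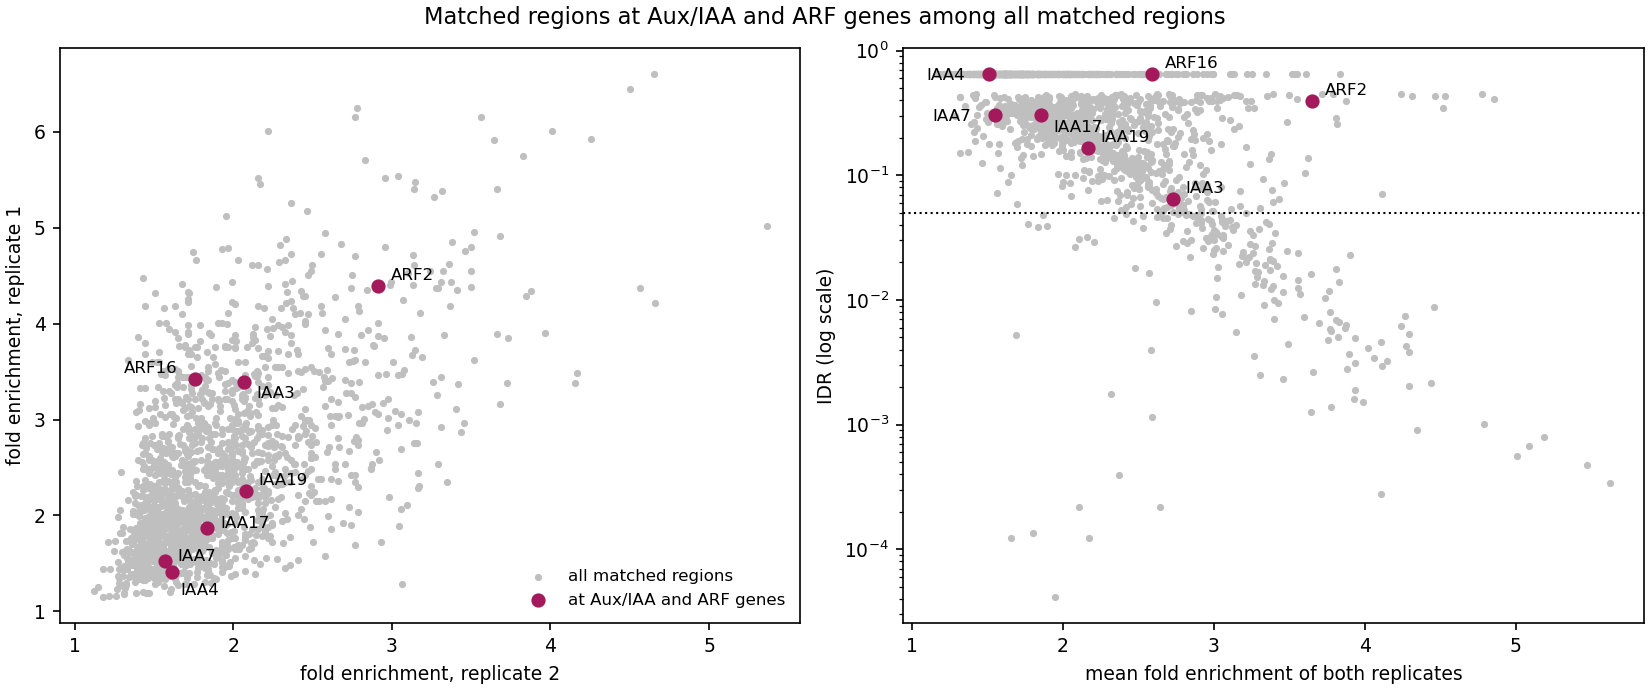
Fold enrichment in replicate 1 against replicate 2 (left) and IDR on a log scale against the mean fold of both replicates (right) for the 1784 matched regions in grey and the 7 at Aux/IAA and ARF genes in colour. The dotted line marks an IDR of 0.05. All 7 lie above it, with IAA3 closest at 0.0639, and ARF2 combines a mean fold of 3.65 with an IDR of 0.391.

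A matched region was present at 7 of the 52 genes (13.5%), against 7.09% of all genes. They were IAA3, IAA4, IAA7, IAA17, IAA19, ARF2 and ARF16. At an IDR of at most 0.05 none of the 52 genes had a matched region, against 0.506% of all genes, a background at which 0 in 52 does not set the members apart. At an IDR of at most 0.1 there was 1 gene, IAA3, against 0.893% of all genes. The median fold of the 7 regions was 2.25 in replicate 1 and 1.84 in replicate 2, close to the 2.25 and 1.79 of all 1776 nuclear matched regions.

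Among the Aux/IAA genes the repressor IAA3, whose symbol is SHY2 and which sets root meristem size, had the lowest IDR (0.0639). Its region at chromosome 1: 1129382-1129759 had a fold of 3.39 in replicate 1 and 2.07 in replicate 2, a mean of 2.73 ± 0.936 (SD, n = 2). The summits lay inside the gene, 111 and 78 bp from its higher-coordinate end. The window of the neighbouring gene AT1G04230 also held them, with IAA3 the nearest gene. IAA3 had 2 further peaks in replicate 1, with folds of 1.74 and 1.37, and neither was in the list of replicate 2. The summit of the peak with a fold of 1.74 lay nearer to AT1G04230. The IAA3 neighbour IAA17, or AXR3, known from gain-of-function mutants with agravitropic roots, starts 6388 bp away. The IAA17 region at chromosome 1: 1138076-1139198 had folds of 1.87 and 1.84, the summits 12 bp apart and 365 and 353 bp inside the higher-coordinate end, with an IDR of 0.304. Replicate 1 alone had 2 more IAA17 peaks, with folds of 1.79 and 1.40. Beyond the window, 1871 bp outside IAA17, lay a matched region at chromosome 1: 1133640-1134719 with folds of 2.04 and 2.79 and the IDR at 0.377.

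IAA19, or MSG2, which acts in hypocotyl bending, had a single narrow peak in each list. The region at chromosome 3: 5263774-5264038 had a fold of 2.25 in replicate 1 and 2.08 in replicate 2, a mean of 2.17 ± 0.119 (SD, n = 2), with summits 2 bp apart. They lay 108 and 106 bp outside the lower-coordinate end, and the IDR was 0.164. IAA7, or AXR2, had a region at chromosome 3: 8195437-8195839 with folds of 1.53 and 1.57, deep in the gene body at over 1000 bp from either end, and an IDR of 0.304. A region at IAA4, chromosome 5: 17549893-17550586, had 1.41 and 1.61 at the lower-coordinate end, and its IDR of 0.649 was the highest in the table, a value shared by 646 of the 1784 regions (36.2%), ARF16 among them. Each of these genes had 1 more peak in replicate 1, with a fold of 1.57 at IAA7 and 1.43 at IAA4. The folds of the replicates were thus close at IAA4, IAA7, IAA17 and IAA19, and replicate 1 was higher at IAA3. The peaks of the matched IAA4 region had −log10 q of only 1.18 and 2.79, the first near the caller's limit. The further IAA4 peak of replicate 1 had 7.98. Weaker peaks are not in the lists, so closeness of such low folds cannot be read as agreement.

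IAA28, a repressor of lateral root initiation, had a peak in each list, but the peaks were at opposite ends of the gene. The peak of replicate 1 at chromosome 5: 9033036-9034121 had a fold of 1.74 and its summit 20 bp inside the lower-coordinate end. In replicate 2 the peak at 9034516-9035120 had a fold of 1.46 and lay at the other end, 394 bp away, where it also fell in the window of the gibberellin biosynthesis gene GA3. The 2 peaks did not overlap, and IAA28 had no matched region.

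The remaining 11 Aux/IAA genes with a peak had it in replicate 1 only, with a highest fold per gene of 1.31 to 2.69. IAA9, a regulator of leaf shape, had peaks on both sides of the gene at chromosome 5: 26252992-26253811 and 26256409-26257771, with folds of 2.62 and 2.69. IAA13, a close relative of the embryonic root repressor IAA12, had a peak with a fold of 2.62 at chromosome 2: 14115960-14116326, 91 bp outside the higher-coordinate end. IAA2 had 3 peaks, the highest with a fold of 2.40 at chromosome 3: 8181444-8182231, inside the gene near its higher-coordinate end, and the others with 1.99 and 1.79. IAA9, IAA13 and this IAA2 peak were the tallest of the group, with −log10 q values of 16.9 to 21.0. IAA18 (1.99 and 1.76), IAA14 (1.69 and 1.54), or SLR, whose stabilised form blocks lateral root initiation, and IAA26 (1.66 and 1.45) had 2 peaks each. IAA1 (1.62) and IAA16 (1.31) had 1 each, inside the gene. The IAA16 fold was the lowest of all members' peaks, with a −log10 q of 11.1. At IAA11 (1.96 and 1.89), IAA20 (1.99) and IAA34 (1.95) the summits lay nearer to another gene. The IAA20 summit was also in the window of ABCB4, which encodes an auxin transporter.

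The Aux/IAA genes were also counted by sister groups, drawn from their known relationships with these values in view, so the counts are a description only. In replicate 1, where 36% of all genes had a summit, all 4 genes of the group IAA1 to IAA4 had one, as did all 4 of IAA7, IAA14, IAA16 and IAA17, and all 3 of IAA18, IAA26 and IAA28. Of IAA5, IAA6 and IAA19 only IAA19 had one, of IAA8, IAA9 and IAA27 only IAA9, and of IAA10 to IAA13 there were 2. The other 8 genes had 2. In replicate 2, where 13.6% of all genes had a summit, the first 2 groups had 2 of 4 each, the groups of IAA18 and IAA19 had 1 of 3 each, and the remaining groups had 0. Some close relatives differed in replicate 1. IAA9 had peaks and IAA8 had none, IAA11 had peaks and IAA10 had none, and IAA13 had a peak and IAA12 had none. The IAA11 summits lay nearer to another gene. In the groups where every gene had a summit in replicate 1, such a difference in that list is absent by construction. Relatives in these groups did differ in replicate 2. IAA3 and IAA4 had a summit there and IAA1 and IAA2 had none, and IAA7 and IAA17 had one and IAA14 and IAA16 had none. The 6 genes IAA20 and IAA30 to IAA34 encode proteins that lack a complete degron, the stretch that auxin receptors bind. Of these genes, 2 (33.3%) had a summit in replicate 1, near the 36% of all genes. In replicate 2 it was 0 of 6, against 13.6% of all genes. Among the other 23 Aux/IAA genes, 15 (65.2%) had one in replicate 1 and 6 (26.1%) in replicate 2. The genes without a complete degron were shorter, with a median span of 1268 bp against 1907 bp. The summits at IAA20 and IAA34, the 2 with one, lay nearer to another gene. The difference between these groups was not tested.

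Aux/IAA genes with no summit in either list were IAA5, IAA6, IAA8, IAA10, IAA12, IAA15, IAA27, IAA29, IAA30, IAA31, IAA32 and IAA33. In replicate 1 the summit nearest to one of them lay 1468 bp outside IAA15, and the farthest 12321 bp from IAA5.

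The ARF genes were counted by class. Class A, the transcriptional activators ARF5, ARF6, ARF7, ARF8 and ARF19, had a summit at 5 of 5 genes in replicate 1, against 36% of all genes, and at 1 of 5 in replicate 2, against 13.6%. These genes are long, with a median span of 5167 bp. ARF5, or MONOPTEROS, needed for the embryonic root and vascular tissue, and ARF8, which acts with ARF6 in flower maturation, each had 1 peak with a fold of 1.86. Their summits lay 237 and 23 bp outside the lower-coordinate end. ARF6 had a fold of 1.63 inside the higher-coordinate end. ARF7, or NPH4, which drives phototropism and lateral root formation, had folds of 1.66 and 1.40 at its opposite ends. The first of its summits also lay in the window of CPN20. A further ARF6 peak with a fold of 2.22 lay 1023 bp outside the gene, just beyond the window. None of these 4 genes had a peak in replicate 2.

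ARF19, which overlaps with ARF7 in lateral root formation, had peaks of very different shape in the 2 lists. In replicate 1 the peak at chromosome 1: 6633390-6634142 had a fold of 2.58 with its summit 590 bp outside the higher-coordinate end. In replicate 2 the peak at chromosome 1: 6628162-6633216 was 5055 bp wide, covered 91.2% of the gene and held 6 summits with folds of 1.78 to 2.89. It was the peak of rank 3 by width and rank 30 by −log10 q (152.1) among the 3423 nuclear peaks of replicate 2. The peaks of the 2 replicates did not overlap, with 173 bp between them. Replicate 1 thus had no peak over the gene body, where replicate 2 had one of its widest.

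**Figure D3:**
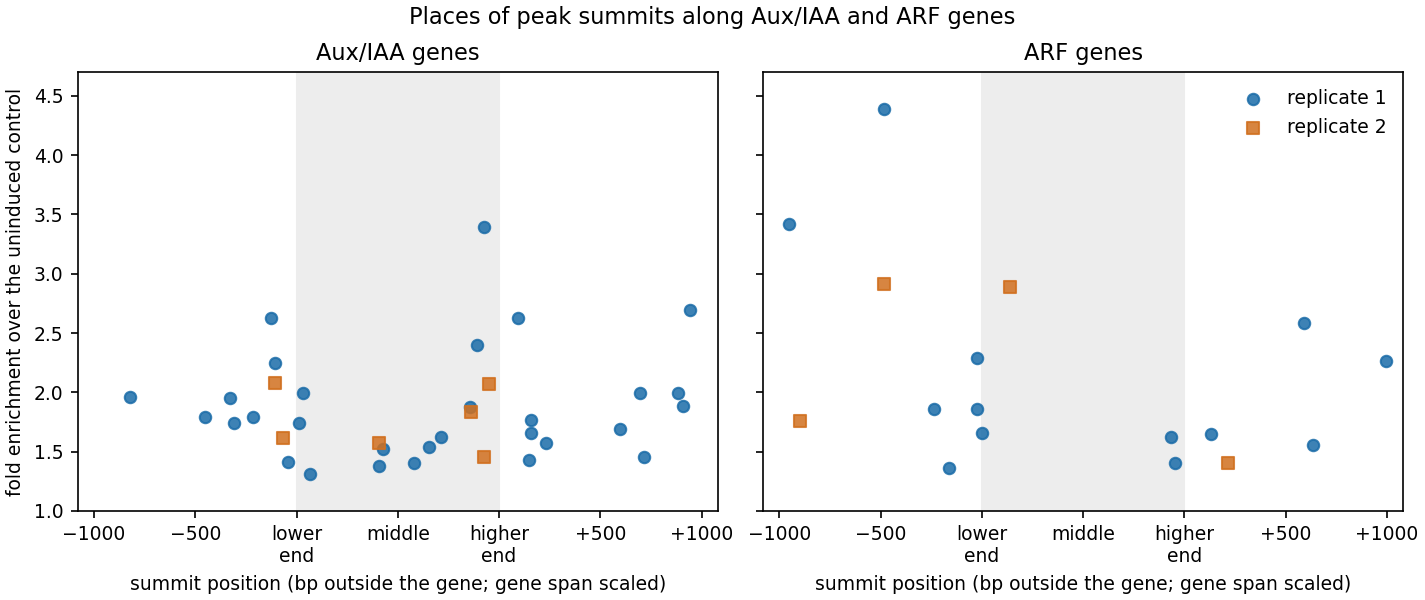
Fold enrichment over the uninduced control (y axis) against the place of each peak's strongest summit along Aux/IAA genes (left) and ARF genes (right), with replicate 1 as circles and replicate 2 as squares. The shaded band is the gene span scaled to 1 length, and distances outside it are in bp. Within 250 bp of a gene end lay 46.5% of the summits in replicate 1, against 49.4% over all genes. In replicate 2 it was 50% of 10 summits, against 43.4%. No ARF peak had its strongest summit in the middle of the gene.

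Class C, ARF10, ARF16 and ARF17, which are silenced by a shared microRNA and of which ARF10 and ARF16 act in root cap formation and seed dormancy, had a summit at 2 of 3 genes in replicate 1 (36% of all genes) and 1 of 3 in replicate 2 (13.6% of all genes). The ARF16 region at chromosome 4: 14701573-14703281 had a fold of 3.42 in replicate 1 and 1.76 in replicate 2, a mean of 2.59 ± 1.17 (SD, n = 2). Its summits lay 951 and 897 bp outside the lower-coordinate end, close to the limit of the window, and its IDR was 0.649. A weaker peak of replicate 1 at the other end had 1.65. ARF10 had 2 peaks in replicate 1, with folds of 2.29 and 2.26, the first 23 bp outside the lower-coordinate end and the second 996 bp outside the other, just inside the limit. ARF17 had none in the window, but a matched region with folds of 3.29 and 1.59 lay 1448 bp outside it, at chromosome 1: 29270454-29271035, in the window of AT1G77840.

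Class B, the mostly repressive ARFs, had a summit at 3 of 14 genes (21.4%) in replicate 1, against 36% of all genes. In replicate 2 it was 2 of 14 (14.3%), near the 13.6% of all genes. Of the 14, the 7 genes ARF12 to ARF15 and ARF20 to ARF22 lie in 1 stretch of chromosome 1. They had no summit in either list, which lowers the class B shares by construction. Apart from ARF2, replicate 1 had weak peaks at ARF3, or ETTIN, a gene of gynoecium patterning (1.36), and at ARF11 (1.55), both nearer to another gene. ARF18 was the single member found in replicate 2 only, with a fold of 1.40 at chromosome 3: 22891478-22891720, 216 bp outside the higher-coordinate end. A summit of replicate 1 lay 1158 bp outside ARF18, just beyond the limit, with a fold of 2.13. ARF1, ARF4 and ARF9 had no summit in either list.

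The 8 genes ARF12 to ARF15 and ARF20 to ARF23 had no summit in either list. The 7 other than ARF23 lie in a stretch of 668 kb of chromosome 1 with 117 protein-coding genes. That stretch held 27 summits of replicate 1, or 40.4 per Mb, against 82.5 per Mb over chromosome 1 up to its last annotated gene, and 7 of replicate 2, or 10.5 per Mb, against 31.1. Protein-coding genes were also sparser there, with 175.1 per Mb against 235.2 over the chromosome. The part of either in the missing ARF peaks was not tested. Because these 8 had no summit, leaving them out raises the ARF shares by construction. The other 15 ARF genes had a summit at 10 (66.7%) in replicate 1 and 4 (26.7%) in replicate 2. The shares of all genes were 36% and 13.6%, and the median span of these 15 was 4530 bp. Over all 23 the counts were 10 (43.5%) and 4 (17.4%), and for the 29 Aux/IAA genes 17 (58.6%) and 6 (20.7%). Over all genes the shares were 36% and 13.6%. Per 100 kb of window ARF genes had 9.61 and 2.96 summits, below the 10.5 and 3.67 of all genes. Aux/IAA genes had 26.8 and 5.36. Median gene spans were 3567 bp for ARF, 1740 bp for Aux/IAA and 2078 bp for all genes. The difference between the families was not tested.

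Over all members, the 43 peaks of replicate 1 had a median fold of 1.79 and a range of 1.31 to 4.39, against a median of 1.76 for all 8493 peaks in the window of any gene. The 10 peaks of replicate 2 had a median of 1.80 and a range of 1.40 to 2.91, against 1.67 for 3031 peaks. In the top 10% of their list by fold were 3 of the 43 (6.98%) and 2 of the 10 (20%). Several peaks were present at 13 genes (25%) in replicate 1, against 8.72% of all genes, with 3 each at IAA2, IAA3 and IAA17. In replicate 2 this was so at 0 genes, against 2.08% of all genes. In replicate 1, 14 of the 43 summits (32.6%) were inside the gene span, against 34.2% of all pairs of a gene and a summit in its window. Within 250 bp of a gene end on either side lay 20 of the 43 (46.5%), against 49.4%. The median height in replicate 1 and the places of the summits were thus near the background of that list, and the share of genes with several peaks was above it, a difference that was not tested. The window of another gene also held 13 of the 43 summits, and for 7 the other gene was nearer. Sharing was common over all genes, where the 8493 peaks made 12670 pairs of a gene and a summit. With the nearest gene only, 22 members (42.3%) had a summit in replicate 1, against 25.6% of all genes.

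**Figure D4:**
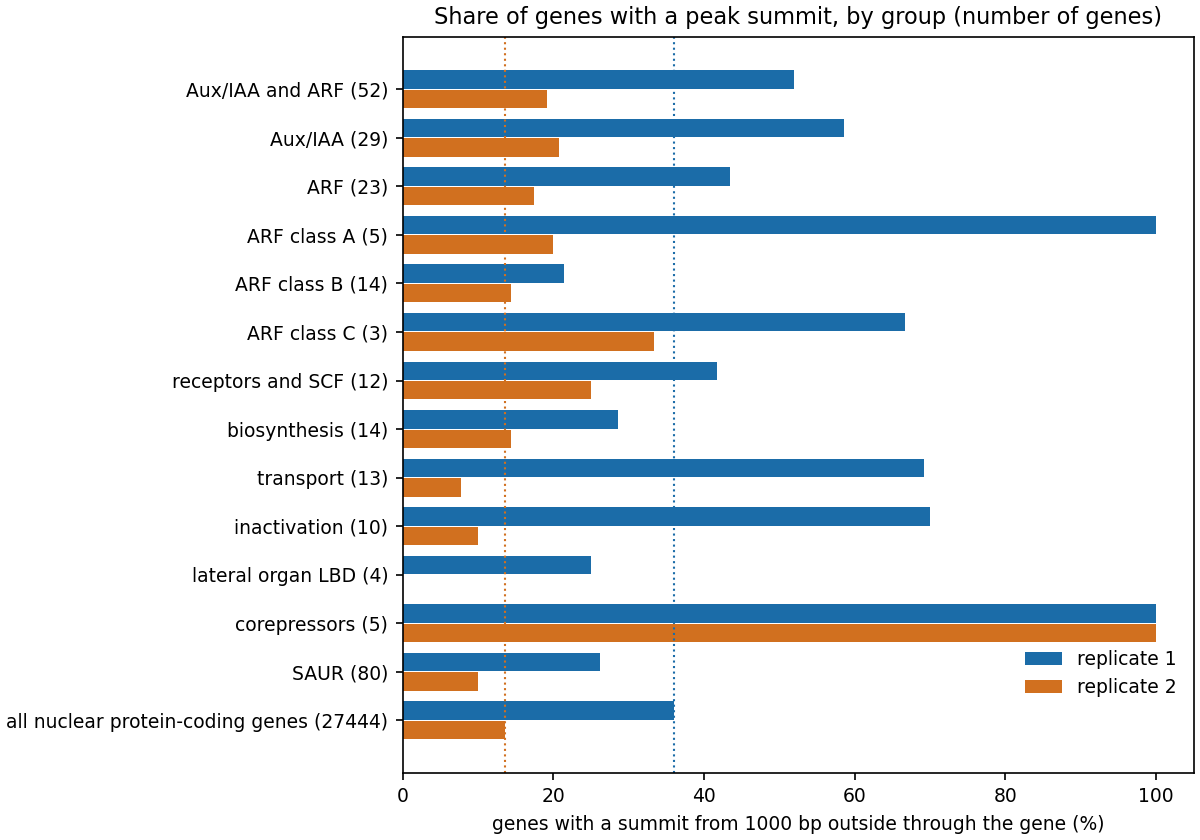
Share of genes with a peak summit from 1000 bp outside through the gene (x axis, %) for the Aux/IAA and ARF genes, their classes and the other auxin lists, with the number of genes in brackets. Dotted lines mark the share over all 27444 nuclear protein-coding genes, 36% in replicate 1 and 13.6% in replicate 2, and the corepressor genes reached 100% in both.

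The other genes of the auxin pathway were set beside them by function, and their counts are to be read against 36% of all genes in replicate 1 and 13.6% in replicate 2. No list was tested. Of 12 genes of the receptors and their ubiquitin ligase, 5 had a summit in replicate 1 and 3 in replicate 2. TIR1, the founding auxin receptor gene, had a matched region at chromosome 3: 23276190-23276954 with folds of 2.57 and 1.76 and the IDR at 0.245. The receptor genes AFB2 (2.93) and AFB3 (2.49) had peaks in replicate 1 only. Of 14 biosynthesis genes, 4 and 2 had a summit in replicates 1 and 2. Both of the genes in replicate 2 also had a matched region, TAR2 with folds of 2.15 and 2.58 and the flavin monooxygenase gene YUC6 with 2.33 and 2.30.

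Auxin transport genes had a summit at 9 of 13 genes (69.2%) in replicate 1, against 36% of all genes, and at 1 (7.69%) in replicate 2, against 13.6%. That 1 was PIN7, an efflux carrier gene. Its region at chromosome 1: 8181186-8181604 had folds of 3.25 and 2.27 and an IDR of 0.0488. Of 10 genes of the inactivation list, mainly GH3 enzymes that conjugate auxin to amino acids, 7 (70%) had a summit in replicate 1 and 1 (10%), GH3.3 (2.49 and 1.82), in replicate 2. LBD16, a lateral root gene that ARF7 and ARF19 activate, had a peak in replicate 1 only, with a fold of 3.60, and the other 3 LBD genes had none. All 5 corepressor genes of the TOPLESS family had a summit in both lists, against 8.88% of all genes, and their median gene span was 6336 bp, against 2078 bp for all genes. At TPL, TPR1 and TPR3 a matched region had an IDR of at most 0.05, against 0.506% of all genes. TPR2 had a matched region with an IDR of 0.155. TPR4, with folds of 2.53 and 1.77, had no matched region.

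Among 80 SAUR genes, small auxin-induced genes matched by name, 21 (26.2%) had a summit in replicate 1 and 8 (10%) in replicate 2. These genes are short, with a median span of 815 bp against 2078 bp for all genes. Per 100 kb of window they had 11.2 and 3.45 summits, near the 10.5 and 3.67 of all genes. The highest matched folds among them, 3.85 and 3.73, belonged to a region at chromosome 4: 18124601-18126056 that was shared by SAUR15 and AT4G38840. AT4G34800 (3.46 and 1.57) and AT4G34760 (2.36 and 2.66) followed by mean fold. Over all 138 genes of these lists, 52 (37.7%) had a summit in replicate 1 and 20 (14.5%) in replicate 2, near the 36% and 13.6% of all genes. The short SAUR genes make up 80 of the 138. Per 100 kb of window the lists had 14.7 summits in replicate 1, against 10.5 for all genes, and 3.77 in replicate 2, against 3.67.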

How the data were processed

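Paired-end ChIP-seq reads were aligned and peaks called by the authors. The submitters' processing notes name bcl2fastq 2.20, Bowtie2 2.3.5.1, SAMtools 1.7, MACS2 2.2.7.1 and TAIR10. Per the series' design text, peaks were called between the induced samples and the control. The sources used here do not state read filters or the settings of the IDR program. The deposited peak lists give a score, a fold enrichment ratio over the control, and −log10 p-values and q-values per peak, all with q below 0.1. The authors' deposited IDR table gives a ranking −log10 q and −log10 IDR values per matched region. Rows sharing both ends were taken as 1 peak with the summit of highest q. Matched regions took the fold of the peak of largest overlap in each list. Gene names and spans came from RefSeq (TAIR10.1), used for names and neighbourhood only. No sequence was used here.

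No test was made: 1 control library and lists without counts allow none between groups. Python 3.11.15, pandas 2.3.3, numpy 2.4.6 and matplotlib 3.10.9 were used. The assignment of summits to genes was tested on simulated data. Members and lists were chosen with earlier results of these data known. The rule for named genes took members with a matched region, the 10 of highest fold in each replicate, those in replicate 2 only, and up to 4 matched genes per pathway list by mean fold. All members are accounted for. Alternatives covered the window, the assignment rule, q and IDR limits and each replicate alone.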

Additional observations from a re-analysis of the deposited data

How the results depend on the processing

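Of 48 counts recomputed under alternatives, 31 stayed within 1.5 times. Among the 31 were counts of 0 at an IDR of at most 0.05 that stayed at 0. With a narrower window or the nearest gene only, such a count cannot rise. Shares in brackets are those of the members and then of all genes. With the gene body alone, 11 members had a summit in replicate 1 (21.2%, 14.2%), 5 in replicate 2 (9.62%, 6.39%), 4 in both (7.69%, 2.54%) and 3 in matched regions (5.77%, 2.52%), with 0 ARF genes in both lists. At a −log10 q of at least 5, replicate 2 had 6 members (11.5%, 7.88%), and the median folds were 1.99 in replicate 1, against 1.79 as reported, and 2.08 in replicate 2, against 1.80. At a −log10 q of at least 10 replicate 1 had 11 (21.2%, 11.4%), replicate 2 had 3 (5.77%, 4.39%) and both had 3 (5.77%, 1.56%). At an IDR of at most 0.1 there was 1 member, IAA3 (1.92%, 0.893%). With 2000 bp outside either end, 1 member, ARF2, had a region at an IDR of at most 0.05 (1.92%, 0.805%), and 5 ARF genes were in both lists (21.7% of ARF genes, 12.5% of all genes). With 500 bp, 1 ARF gene was in both lists, ARF16 and ARF19 being lost, which is 4.35% of ARF genes against 6.95% of all genes. Using 1 list in place of both, the count of 9 became 10 without replicate 1 (19.2%, 13.6%) and 27 without replicate 2 (51.9%, 36%). For Aux/IAA genes it was 6 and 17, and for ARF genes 4 and 10. Choices of window and limit act here by construction, through fewer or more peaks and bases counted. No paired analysis was possible because 1 control library served both induced replicates and no test was made. Read depth is unknown, so weak peaks near the caller's limit cannot be given a counting error. Examples are the replicate 1 peaks with a fold of 1.41 at IAA4 and 1.40 at ARF7.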
